A study of Rattus norvegicus with 4 samples.

Results

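The 9 genes described here encode components and regulators of the complement system: C1s, C1r, C1qa, C1qb, C2, C3, Serping1, Cd55 and Cd59. They were taken by symbol, with every array probe set annotated to these symbols and read in rat cochlear lateral wall given 3-NP or saline. They are 9 of the 13810 genes that the array annotation names by a single symbol, and they had 12 probe sets. Cd59 was found under its RefSeq symbol Cd59b. Of the 9, 8 genes with 9 probe sets lay on the array design used at day 1, and C2, with 3 probe sets, lay on the other design, used at day 3. No gene of the set was measured on both days, so nothing is said of how any of them differed between day 1 and day 3.

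Complement is a system of secreted and membrane proteins that tags cells and debris and draws in phagocytes. In its classical pathway the recognition protein C1q binds a target and switches on the serine proteases encoded by C1r and C1s. C1s then cleaves C4 and C2, the protease fragment of C2 cleaves C3, and the C3b fragment stays covalently on the target. The plasma inhibitor encoded by Serping1 inactivates C1r and C1s, CD55 speeds the decay of the C3-cleaving enzyme on host membranes, and CD59 blocks assembly of the membrane attack complex.

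The arrays came from the lateral wall of the rat cochlea, the tissue of ligament fibrocytes and vessels along the outer side of the cochlear duct. Per the labels, the 4 groups were 3-NP at 300 mM, day 1; saline, day 1; 3-NP at 300 mM, day 3; and saline, day 3, with 1 array each. 3-NP (3-nitropropionic acid) inhibits succinate dehydrogenase, complex II of the mitochondrial respiratory chain, and was infused onto the round window of the left cochlea. All groups were female Sprague-Dawley rats of 8 to 10 weeks, operated on under pentobarbital and lidocaine, with the right cochlea destroyed. The labels describe the sample as the apical side of the basal turn in some fields and as a second turn dissected without stria vascularis in another. How many rats stand behind an array is not stated in the labels.

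With 1 array per group there was no replicate error, and no p-value was computed. The spread that could be measured was that between probe sets of the same gene: the SD of a single log2 ratio was 0.35 at day 1, over 744 genes with at least 2 measured probe sets, and 0.47 at day 3, over 805 genes. This spread contains no animal, dissection or labelling error. Signals are MAS5 intensities in arbitrary units. The 3-NP array of day 1 was brighter than its saline partner by a log2 ratio of 0.44 for the median gene. The 18 probe sets of spike-in controls added at hybridisation, several for each spiked transcript, had a median shift of 0.36 with an SD of 0.36. At day 3 the median gene shifted by 0.10, while the spike-in probe sets had a median of 0.0 with an SD of 0.15. Ratios below are therefore log2 of 3-NP over saline relative to the median gene of that day, with the deposited signals beside them, and genes at least 2-fold apart on that scale are called higher or lower.

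Genes of the fibrocyte list were measured in both pairs, and so were genes of the stria and melanocyte list. At day 1, 10 of 10 fibrocyte markers on the array were measured, and Slc12a2, the sodium-potassium-chloride cotransporter gene and the brightest of them, had 2761 in 3-NP and 4109 in saline. At day 3 Coch, which encodes cochlin, had 5677 in 3-NP and 6548 in saline. Of the stria and melanocyte markers, 6 of 7 were measured at day 1 and 5 of 5 at day 3. Their brightest were Kcne1 at day 1 (475 in 3-NP, 1006 in saline) and Atp1b2 at day 3 (1356 in 3-NP, 2881 in saline). Of the 5 at day 3, 1 was higher and 3 were lower, against 9.21% and 8.18% of all measured genes. In a whole-tissue sample, fewer cells of a type and less RNA per cell cannot be told apart.

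**Figure D1:**
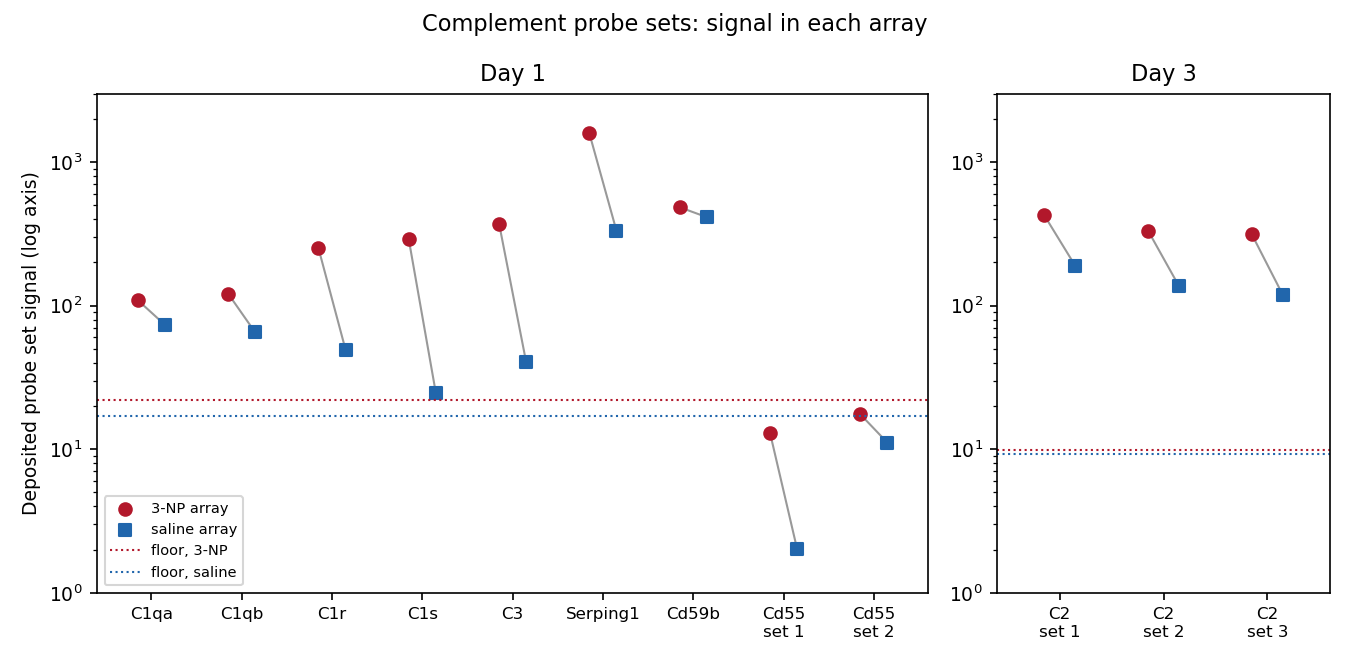
Deposited signal of each complement probe set on a log axis, with the 3-NP array as circles and the saline array as squares, at day 1 (left) and day 3 (right). Dotted lines are the floor of each array, its 30th percentile. C1r, C1s, C3 and Serping1 are steep pairs, C1qa, C1qb and Cd59b are shallow, both Cd55 probe sets lie under the floor, and the 3 C2 probe sets run in parallel.

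At day 1 the proteases of the C1 complex, the central component C3 and the C1 inhibitor had higher signals in the 3-NP array. The C1q chains and Cd59b lay within 2-fold of the median gene. Of 7 genes measured, 4 were at least 2-fold higher (C1s, C3, C1r and Serping1) and 0 were lower, with a median log2 ratio of 1.81. Over all 6533 measured genes, 7.76% were higher and 6.47% were lower, and the median is 0 by construction. As deposited, 17.9% of all genes were higher and 2.62% lower, and the 4 of 7 were the same genes. C1s and C3 passed the filter on low signals through the 3-NP array alone, so a higher 3-NP signal was a condition of their being counted. The other 5 genes passed in both arrays, and over those alone 2 were higher (C1r and Serping1) and the median was 0.46.

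C1s had a signal of 289 in the 3-NP array, against 24.6 in the saline array. The saline value lay a little above the floor of 17.1. The log2 ratio was 3.11, an 8.65-fold difference, and 0.551% of measured genes had a ratio as high or higher. C1s encodes the protease that cleaves C4 and C2.

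C1r, whose product activates C1s inside the C1 complex, had 251 in 3-NP and 49.3 in saline. Its log2 ratio was 1.91 (3.76-fold), a value that 2.11% of measured genes reached. C1r and C1s are next to each other on chromosome 4 in the RefSeq annotation of GRCr8. Their log2 ratios differed by 1.20, against an SD of 0.50 for the difference between single probe sets.

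C3 is the component on which the classical, lectin and alternative pathways converge. Its signal was 372 in 3-NP and 40.4 in saline, with a log2 ratio of 2.76 (6.80-fold) that 0.765% of genes reached. The gap of 0.35 between C1s and C3 was smaller than the SD of such a difference, so their order is not resolved.

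Serping1, the gene of the C1 inhibitor, had 1581 in 3-NP and 332 in saline. Its log2 ratio of 1.81 (3.51-fold) was reached by 2.43% of measured genes. It lay 0.10 under C1r, within the probe set spread, so the order of the protease gene and the inhibitor gene is not resolved either.

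The C1q chain genes did not share this pattern. C1qa had 109 in 3-NP and 73.4 in saline, and its log2 ratio of 0.13 was under the SD of a single ratio. C1qb had 121 in 3-NP and 65.0 in saline, a log2 ratio of 0.46 that was a little over that SD and under 2-fold (1.37-fold). C1qc, which encodes the remaining chain of C1q and lies between C1qb and C1qa on chromosome 5, had 126 in 3-NP and 62.8 in saline, a log2 ratio of 0.56. As deposited, without centring, C1qc was just under 2-fold higher in 3-NP (2.0 after rounding), C1qb 1.86-fold and C1qa 1.48-fold. The log2 ratio of C1qc was reached by 18.0% of measured genes, that of C1qb by 22.6% and that of C1qa by 41.2%.

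Differences between genes of the same pair of arrays do not depend on the factor by which an array is scaled. By that measure C1s exceeded C1qb by 2.66 and C1qa by 2.98 on the log2 scale, and C1r exceeded them by 1.45 and 1.78. Across the 21 pairs of the 7 measured genes, the smallest difference between any of C1s, C3, C1r and Serping1 and any of C1qa, C1qb and Cd59b was 1.36, between Serping1 and C1qb. These groupings were made on the ratios themselves and carry no test.

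Of the 2 membrane regulators, Cd59b alone was measured. Cd59b, which blocks the membrane attack complex, had 484 in 3-NP and 413 in saline, with a log2 ratio of -0.21 that turns to 0.23 as deposited. Both values are smaller than the SD of a single ratio. Cd55 was not measured: its probe sets had 13 and 17.5 in 3-NP and 2.02 and 11.1 in saline, all under the floors of 22.0 in 3-NP and 17.1 in saline, so no ratio is given.

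**Figure D2:**
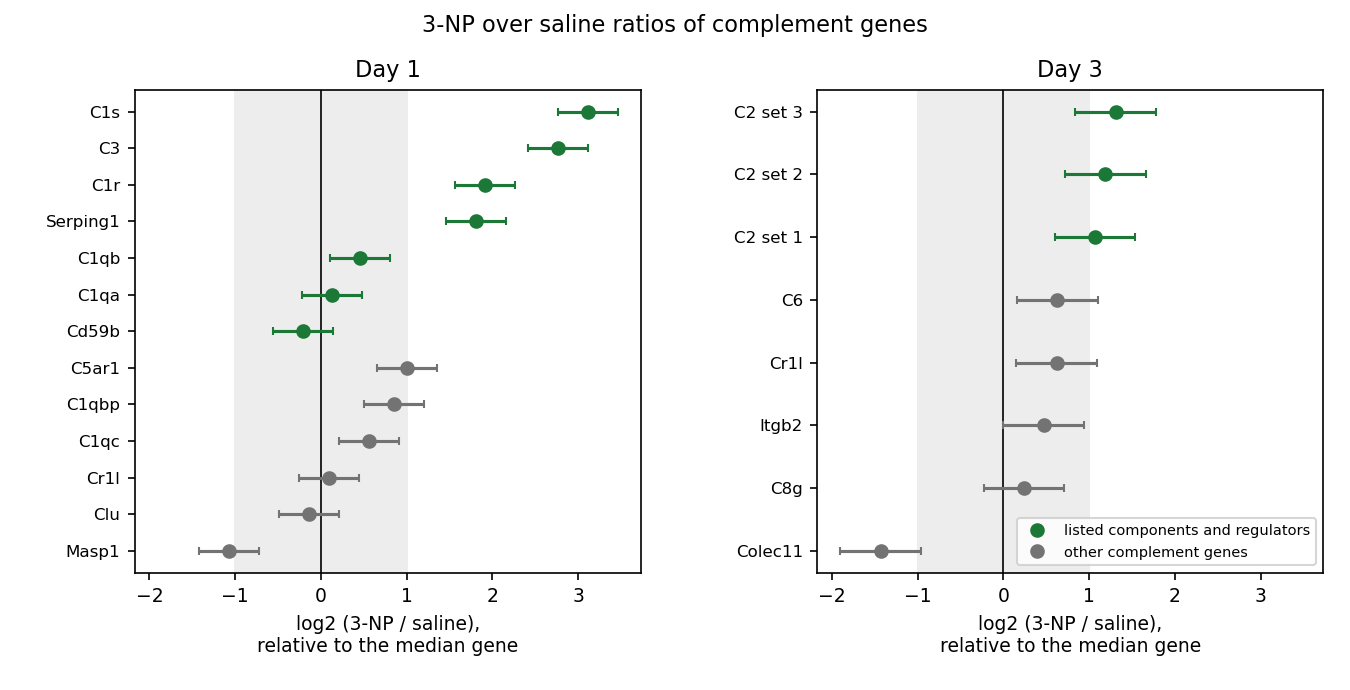
Log2 ratio of 3-NP over saline relative to the median gene for measured complement genes at day 1 (left) and day 3 (right), with bars of 1 SD between probe sets (0.35 and 0.47); the grey band marks ratios under 2-fold. C1s, C3, C1r and Serping1 lie to the right of the band with their whole bars, and the C2 points lie just beyond its edge.

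**Figure D3:**
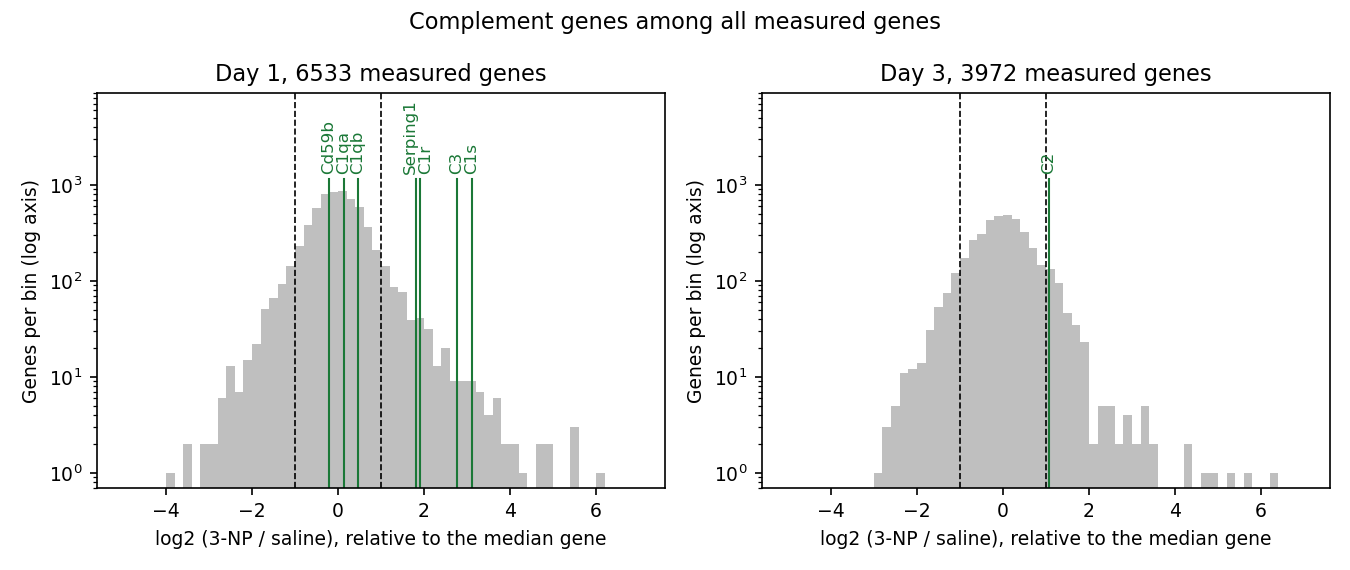
Histogram of the relative log2 ratios of all measured genes (grey, log count axis) with lines at the complement genes and dashed lines at 2-fold. At day 1, C1s (3.11) and C3 (2.76) lie in the upper tail and Cd59b, C1qa and C1qb in the central mass; at day 3 C2 lies at 1.07.

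RefSeq promoters of the GRCr8 assembly, from 250 bases before to 50 after the start site, were matched for 5 of the 9 genes, namely C1r, C1qa, C1qb, C3 and Cd55. Those of C3 and C1r are printed because both genes were higher at day 1, and those of C1qa and C1qb because both lay near the median gene. Each runs 5′ to 3′ on the strand of its gene, with matched motifs in capitals.
C3, GRCr8 chr9:2201290-2201589, minus strand: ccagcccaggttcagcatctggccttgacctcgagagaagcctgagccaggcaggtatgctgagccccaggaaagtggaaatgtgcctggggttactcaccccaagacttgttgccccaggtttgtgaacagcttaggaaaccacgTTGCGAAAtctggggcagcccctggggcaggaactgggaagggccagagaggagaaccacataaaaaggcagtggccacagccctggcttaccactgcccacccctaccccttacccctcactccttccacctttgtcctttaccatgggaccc
C1r, GRCr8 chr4:159098763-159099062, plus strand: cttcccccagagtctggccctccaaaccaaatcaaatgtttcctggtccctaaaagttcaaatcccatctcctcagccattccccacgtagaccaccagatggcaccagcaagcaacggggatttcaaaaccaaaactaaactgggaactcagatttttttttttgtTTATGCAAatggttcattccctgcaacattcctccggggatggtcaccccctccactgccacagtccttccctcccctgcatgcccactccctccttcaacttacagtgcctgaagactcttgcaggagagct
C1qa, GRCr8 chr5:154419884-154420183, minus strand: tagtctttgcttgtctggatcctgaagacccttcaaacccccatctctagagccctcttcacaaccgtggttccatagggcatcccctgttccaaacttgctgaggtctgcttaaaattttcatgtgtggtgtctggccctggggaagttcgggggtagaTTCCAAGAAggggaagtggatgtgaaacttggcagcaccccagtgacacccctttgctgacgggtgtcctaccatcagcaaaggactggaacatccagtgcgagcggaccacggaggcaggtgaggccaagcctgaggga
C1qb, GRCr8 chr5:154407778-154408077, minus strand: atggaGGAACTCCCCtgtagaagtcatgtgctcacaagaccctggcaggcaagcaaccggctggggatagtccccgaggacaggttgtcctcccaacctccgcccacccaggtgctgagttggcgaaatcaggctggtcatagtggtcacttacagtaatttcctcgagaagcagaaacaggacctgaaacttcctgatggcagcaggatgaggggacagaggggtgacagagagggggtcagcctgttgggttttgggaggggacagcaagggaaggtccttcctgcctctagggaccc

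Both strands were searched for a C/EBP-type pattern (TTGCNNAA), a STAT-type GAS pattern (TTCNNNGAA), an IRF-type pattern (GAAANNGAA), the NF-kB consensus and a TATA box (TATAAA). The capitals in C3 are a match to the C/EBP pattern that begins at -104, and those in C1r are a match on the opposite strand that begins at -83. Of all 33469 RefSeq promoters of this length, 10.6% hold that pattern. The capitals in C1qa match the GAS pattern, at -90, which 8.87% of promoters hold. Those in C1qb match the NF-kB consensus on the opposite strand, at -245, which 7.51% hold. The IRF-type pattern (9.71% of promoters) and the TATA box (14.2%) were in none of the 5, and the Cd55 promoter held no match to any of the 5 patterns. No matched motif overlapped another. A match describes letters and is not a measured binding site.

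At day 3 the set was represented by C2, which encodes the component that C1s cleaves to form the C3-cleaving enzyme. Its 3 probe sets had 427, 333 and 313 in the 3-NP array, against 189, 136 and 118 in the saline array. Every probe set was higher in 3-NP, and their relative log2 ratios were 1.07, 1.19 and 1.31. The mean was 1.19 ± 0.12 (SD over 3 probe sets, of which 2 derive from the same source sequence), a 2.29-fold difference. The brightest probe set, which stands for the gene, was 2.11-fold higher, and 7.73% of the 3972 measured genes at day 3 had a ratio at or above it. C2 is thus 1 of 1 measured genes counted as higher, against 9.21% of all genes that day. The share of lower genes was 8.18%, and without centring the shares were 10.9% higher and 6.42% lower. Its 1.07 is nearer to the 2-fold line, at 1, than the SD of 0.47.

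Agreement between probe sets of a gene was counted on each design. Among genes whose brighter probe set was at least 2-fold higher, the next probe set was also at least 2-fold higher for 32 of 41 genes at day 1 and for 17 of 41 at day 3. For C2, 3 of 3 probe sets were past 2-fold. C1s, C1r, C3, Serping1, C1qa, C1qb and Cd59b had 1 probe set each.

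A list of 47 further complement genes covers the lectin and alternative pathways, the terminal components, receptors and soluble regulators. It had 33 genes on either array, and the other 14 were not analysed here. At day 1, 6 of 26 were measured, of which 1 was at least 2-fold higher and 1 lower, and their median was 0.33. Over all measured genes that day, 7.76% were higher and 6.47% lower. At day 3, 5 of 8 were measured, of which 0 were higher and 1 was lower, and their median was 0.47. Of these 5, C6 and Cr1l passed the filter through the 3-NP array alone and Colec11 through the saline array alone. The shares over all genes at day 3 were 9.21% higher and 8.18% lower. With so few genes measured, these counts cannot be set apart from the shares.

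Among receptors, C5ar1, which binds the C5a fragment and is known from phagocytes, had 78.9 in 3-NP and 28.8 in saline at day 1. Its log2 ratio of 1.01 (2.02-fold) sits on the 2-fold line, and it passed the filter through the 3-NP array alone. The C3a receptor gene C3ar1 was under the floor, with 10.1 in 3-NP and 14.2 in saline. Itgb2, the beta chain of complement receptor 3, had 41.1 in 3-NP and 27.7 in saline at day 3, a log2 ratio of 0.47 that equals the SD of a single ratio. Its alpha chain gene Itgam was under the floor at day 1, with 15.2 in 3-NP and 2.74 in saline.

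Of the lectin pathway, Masp1 at day 1 and Colec11 at day 3 passed the filter, both through the saline array alone. Masp1, a protease of that pathway, had 30.7 in 3-NP and 47.5 in saline at day 1 by its measured probe set, a log2 ratio of -1.07 that is -0.63 as deposited. A further Masp1 probe set, under the filter, pointed the other way, with 38.0 in 3-NP and 13.8 in saline, so the direction of Masp1 is not settled. Masp2, Mbl1, Mbl2 and Fcna were under the floor in both arrays. The collectin gene Colec11 had 10.6 in 3-NP and 26.8 in saline at day 3, a log2 ratio of -1.43 (2.70-fold lower), with a 3-NP signal close to the floor of 9.85.

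Regulators outside the set that were measured at day 1 included Clu and Cr1l. Clu, which encodes clusterin, an inhibitor of the terminal complex, had 5779 in 3-NP and 4709 in saline, a log2 ratio of -0.14 that turns to 0.30 as deposited. Its other probe set was under the filter, with 4.2 in 3-NP, below the floor, and 27.5 in saline. Cr1l, which encodes the rodent C3 regulator Crry, had 392 in 3-NP and 271 in saline (0.09). On the other array design at day 3, a dimmer Cr1l probe set had 21.6 in 3-NP and 13.1 in saline (0.62). That probe set passed the filter through the 3-NP array alone. C1qbp, which encodes a mitochondrial matrix protein that can bind C1q, had 704 in 3-NP and 288 in saline at day 1. Its log2 ratio was 0.85, or 2.45-fold as deposited.

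Of the terminal components, C6 and C8g alone passed the filter. C6 had 25.9 in 3-NP and 15.6 in saline at day 3, with a log2 ratio of 0.63. It passed through the 3-NP array alone, so a higher 3-NP signal was a condition of its being measured. C8g, which passed in both arrays, had 38.8 in 3-NP and 30.6 in saline, with 0.24. C9 and C8b at day 1 were under the filter, as was C8a at day 3, and C5 was under the floor at day 3.

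C1q is made chiefly by macrophages, and liver cells are the main source of plasma complement, so markers of both were read beside the set. Of 14 macrophage markers on the day 1 array, 8 were measured. Of these, 2 were higher and 0 lower, against 7.76% and 6.47% of all measured genes. The higher ones were Lgals3 (736 in 3-NP, 97.9 in saline) and Cd14 (177 in 3-NP, 44.9 in saline), at log2 ratios of 2.47 and 1.54. The list's median was 0.28. The summed signal of the 14 was 3551 in 3-NP and 1818 in saline, 0.53 on the relative log2 scale. Lyz2, the brightest, had 1876 in 3-NP and 1183 in saline (0.23), and Csf1r, the receptor for macrophage colony-stimulating factor, was at -0.06. Aif1, Itgam and Ptprc were under the floor in both arrays. The measured macrophage markers ranged in log2 ratio from -0.30 (Laptm5) to 2.47 (Lgals3). The part of macrophages in the complement values was not tested. At day 3, 4 of 7 macrophage markers were measured. Of these, 0 were higher and 2 lower (Mrc1 and Cd163), against 9.21% and 8.18% of all genes. Mrc1 passed the filter in both arrays. Cd163 (11.4 in 3-NP, 22.2 in saline) passed through the saline array alone, so a higher saline signal was a condition of its being counted. The summed signal of the 7 was 166 in 3-NP and 210 in saline, and Ms4a7 and Trem2 were under the floor. Laptm5, the brightest marker of that day, had 77.1 in 3-NP and 86.5 in saline.

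Of 12 liver and plasma protein genes on the day 1 array, 2 were measured. Alb, Apoa1, Apoa2, Fga and Fgb were under the floor in both arrays. The summed signal of the 12 was 307 in 3-NP and 194 in saline, 0.22 on the relative log2 scale. Ttr, the brightest by mean log2 signal of both arrays, had 58.5 in 3-NP and 49.6 in saline (-0.20). The other measured gene was Hpx, which encodes the heme-binding protein hemopexin. It had 93.7 in 3-NP and 2.08 in saline, under the floor, so that it was at least 4.03-fold higher. Hpx passed the filter through the 3-NP array alone, so a higher 3-NP signal was a condition of its being counted. Of the 2 measured, 1 was thus higher and 0 lower, against 7.76% and 6.47% of all measured genes. Neutrophil markers had 2 of 4 measured at day 1, with 0 higher and 0 lower, and lymphocyte markers had 1 of 11.

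Of 10 endothelial and mural cell markers on the day 1 array, 5 were measured, 3 of them higher and 1 lower. Over all measured genes that day, 7.76% were higher and 6.47% lower. Of the higher markers, Mcam (83.0 in 3-NP, 1.85 in saline) and Plvap (68.1 in 3-NP, 5.68 in saline) had saline signals under the floor. Both passed the filter through the 3-NP array alone, so a higher 3-NP signal was a condition of their being counted. Kdr passed in both arrays, and Rgs5, the lower one, in saline alone. The summed signal of the 10 was 866 in 3-NP and 401 in saline, 0.67 on the relative log2 scale. Erythrocyte markers had 2 of 4 measured, 0 higher and 0 lower. Their summed signal was 7548 in 3-NP and 3845 in saline, 0.53 on the relative log2 scale. Most of that sum was Hbb, with 7216 in 3-NP and 3695 in saline. Resident tissue lists lay the other way at day 1, with 0 measured markers of each higher. Lower were 4 of 10 measured fibrocyte markers, 5 of 6 stria and melanocyte markers and 7 of 8 bone and cartilage markers. Of the lower bone and cartilage markers, Omd, Acan and Ibsp passed the filter through the saline array alone. A higher saline signal was thus a condition of their being counted. At day 3 the higher stria and melanocyte marker was Tyrp1, with 69.4 in 3-NP and 4.62 in saline, under the floor. Tyrp1 passed the filter through the 3-NP array alone, and Bsnd, a lower marker, through the saline array alone. The part of any of these cell types in the complement values was not tested.

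The calls in the set were read again under 8 other choices of scaling, floor, filter and probe set. Serping1 ranged from 1.79 to 2.25 and C2 from 1.07 to 1.19, while C1qb reached at most 0.90 and C1qa at most 0.57, both as deposited. Requiring the filter in both arrays removed C1s and C3, which left 2 of 5 genes higher with a median of 0.46.

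**Figure D4:**
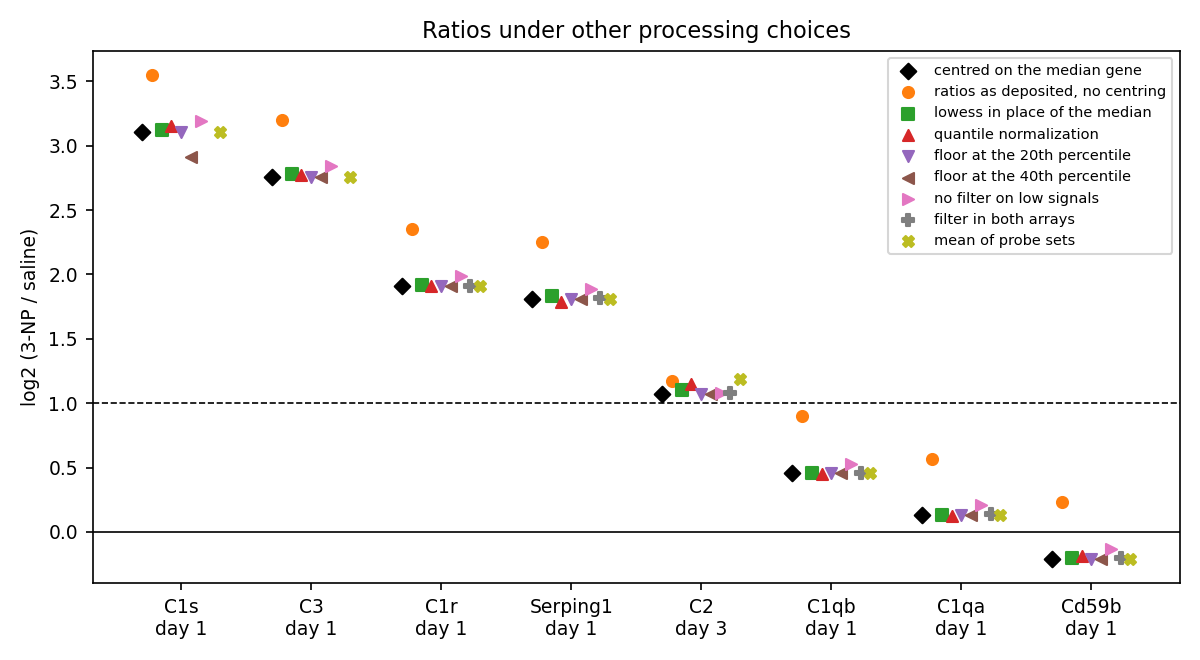
Log2 ratio of 3-NP over saline of each measured gene of the set under 9 settings, with the dashed line at 2-fold. C1s, C3, C1r, Serping1 and C2 stay above the line and C1qb, C1qa and Cd59b under it wherever they were measured; the ratios as deposited lie highest at day 1.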

How the data were processed

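Biotinylated cRNA from 6 µg of total RNA was hybridised to Affymetrix arrays, per the labels. The authors deposited linear signal intensities of probe sets; the submitters' processing notes name MAS5, without a version. The sources used here give no scaling target, detection calls or array build. Probe sets were named through the platform annotation and gene identifiers of the GRCr8 RefSeq genes. Signals under an array's 30th percentile over probe sets other than controls were set to it (22.0 in 3-NP and 17.1 in saline at day 1, 9.85 in 3-NP and 9.22 in saline at day 3). A probe set was measured when it reached the 50th percentile in at least 1 array of the pair, and the brightest probe set by mean log2 signal stood for its gene. Log2 ratios were centred on the median gene. This takes the median gene as unchanged within a pair, and the number of arrays limits the precision.

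No test was run. The members and lists were chosen with earlier results of these data known, and the design was written from the labels. The rule for named genes took all 9 genes and further complement genes at least 2-fold apart. It also took the brightest macrophage, liver and fibrocyte marker of each day. All other named complement genes and cell type markers were picked after their values were seen. Several of those markers were picked for a ratio at least 2-fold apart. Ratios as deposited, lowess, quantile normalization, other floors and filters and a mean over probe sets were tried. The ratio steps were tested on simulated data. Python 3.11.15, numpy 2.4.6, pandas 2.3.3 and statsmodels 0.14.6 were used.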

Additional observations from a re-analysis of the deposited data

How the results depend on the processing

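Of the day 1 values, the count of 4 higher genes in the set held under 7 of 8 alternatives. Requiring the 50th percentile in both arrays left 5 genes, without C1s and C3, of which 2 were higher, and the median was 0.46. As deposited the median was 2.25. The count of further complement genes higher at day 1 was 2 as deposited (C5ar1 and C1qbp), 2 with no filter and 0 with the filter in both arrays, which removes C5ar1. C1s was between 2.91, a bound with saline at a floor of the 40th percentile, and 3.55; C3 between 2.76 and 3.20; C1r between 1.91 and 2.35; Serping1 between 1.79 and 2.25; and C2 between 1.07 and 1.19. At day 3, the count of 1 higher gene in the set and of 0 higher further genes was the same under every alternative. With a floor at the 40th percentile Colec11 was at -0.99 and Masp1 at -0.78, both under 2-fold. No result reversed among those at least 2-fold apart. Cd59b and Clu changed sign as deposited only. No paired analysis was possible because each group had 1 array, and for that reason no replicate could be left out.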

Other observations

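The gene next to Serping1 on chromosome 3 in the RefSeq order of GRCr8 is Ube2l6, which encodes an enzyme that conjugates the interferon-induced modifier ISG15. Ube2l6 had 240 in 3-NP and 48.3 in saline at day 1, a relative log2 ratio of 1.87, beside 1.81 for Serping1. C1r and C1s, which are neighbours of each other, were at 1.91 and 3.11, and C1qc, next to C1qa and C1qb, was at 0.56. The other measured neighbours at day 1, none of them complement genes, lay nearer the median gene than Ube2l6. Gpr108, next to C3, was at -0.07, Lpcat3, next to C1s, at 0.45, and Fbxo3, next to Cd59b, at -0.72. At day 3 the measured neighbours were Ephb2, next to C1qb, at 0.34, Thsd7b, next to Cd55, at -0.77, and C3h11orf91, next to Cd59b, at 1.5 with 28.9 in 3-NP and 9.54 in saline. These neighbours were looked up after the values of the set were seen.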
